A study of Mus musculus with 24 samples.

Results

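Transcript levels of 10 genes that the tumour suppressor TRP53 can switch on to kill a damaged cell, or whose products work in the same death pathway, were compared in thymocytes of irradiated and non-irradiated mice. The genes were Bbc3, Pmaip1, Bax, Fas, Perp, Tnfrsf10b, Aen, Apaf1, Bid and Ei24. They were found by matching the accession of each array probe to a gene table, which gave 11 probes of these 10 genes out of 55681 probes, of which 28026 carried a gene name and together covered 21154 genes. Aen had 2 probes and each of the other genes had 1, and all 11 were well above background on 24 of 24 arrays in both channels.

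The samples were thymocytes of C57BL/6J mice, 3 independent samples in each of 8 groups, female and male. The control groups were not irradiated, the low-dose groups received 0.075 Gy of X-rays, the high-dose groups 1.75 Gy of γ-rays, and the groups under the adaptive regimen of radiation (RAR) 0.075 Gy of X-rays and, 6 h later, 1.75 Gy of γ-rays. The mice were juveniles of a few weeks, and the time between the last irradiation and the removal of the thymus was not given in the sources used here. Thymi were dispersed through a mesh without sorting, so each sample holds all the cells that passed it, and in such bulk RNA fewer cells of a type and less RNA per cell cannot be told apart.

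TRP53 is a transcription factor that is stabilized when DNA is broken, and thymocytes are among the cells that readily die by apoptosis once it is active. Its apoptotic targets act at several points. PUMA (from Bbc3) and NOXA (from Pmaip1) are BH3-only proteins that neutralize the survival members of the BCL2 family, BAX opens the outer mitochondrial membrane, and APAF1 builds the apoptosome that activates caspase 9. FAS and the TRAIL receptor (from Tnfrsf10b) carry death signals from the cell surface, and BID, a BH3-only protein cleaved by caspase 8, passes such signals on to the mitochondria. Aen encodes an exonuclease that degrades DNA in dying cells, Ei24 a protein of the endoplasmic reticulum, and Perp a membrane protein of cell junctions.

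The letters that TRP53 reads are shown here because these genes are grouped by that factor. RefSeq promoter windows of GRCm38.p6, from 250 bases before to 50 after a transcript start, were at hand for 7 of the 10 genes (10 windows) and were searched on both strands for the TRP53 half-site consensus, a palindrome of 10 bases, and for pairs of half-sites at most 13 bases apart with at most 2 mismatches in all. An exact half-site lay in windows of 3 of the 7 genes, namely Bax, Aen and Ei24, against 8.36% of all 32851 windows. A pair lay in windows of 2 genes, Bax and Aen, against 10.1% of all windows. A gene was counted if any of its windows matched, and Bbc3 and Aen had more than 1 window. These counts of genes and shares of windows are therefore not in like units. These matches are a description of the letters, not bound sites. In the Bax pair the half-sites were 1 base apart with 1 mismatch, in the Aen pair 7 bases apart with 2 mismatches, and the single half-site of Ei24 ended directly before the transcript start. The Aen pair began 10 bases after the first of 2 Aen transcript starts and at position -121 from the second. Capitals mark the half-sites, and each stretch is written 5′ to 3′ on the strand of the gene: Bax at chr7:45467029-45467148 (minus strand), Aen at chr7:78895937-78895963 (plus strand) and Ei24 at chr9:36797335-36797454 (minus strand).
Bax: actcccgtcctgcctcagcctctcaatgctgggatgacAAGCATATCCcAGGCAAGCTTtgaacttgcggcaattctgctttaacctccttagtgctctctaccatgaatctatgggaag
Aen: GGGCTTGTCCgggcaagGAGCTTCCGC
Ei24: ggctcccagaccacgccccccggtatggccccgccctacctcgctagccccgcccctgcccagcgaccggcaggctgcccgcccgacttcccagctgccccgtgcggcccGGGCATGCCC

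All values below are log2 ratios of thymocyte RNA (Cy5) over a common mouse reference RNA (Cy3), so that a difference of 1 is a 2-fold change; a ratio ranks samples for one probe and does not rank genes by abundance. A gene was called higher or lower, or said to have risen or fallen, at a limma p below 0.05 after Benjamini-Hochberg adjustment over all 55681 probes together with a change of at least 1.5-fold, which is 0.585 on the log2 scale. Between 34.7% and 71.8% of the Cy5 spots of an array were well above background, both extremes being female RAR arrays. The SD of a member probe within a group of 3 ranged from 0.01 to 0.59 with a median of 0.10. The samples were labelled as independent, the number of arrays limits the precision, and an exact permutation test of 3 against 3 cannot give a p below 0.1.

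Most of the genes rose under every treatment, and 1 of them fell under every treatment. Against controls of the same sex, 7 of the 10 genes were higher and 1 was lower in low-dose females, beside 4.76% and 4% of all probes. The counts were 8 higher and 1 lower in low-dose males (3.21% and 3.44% of all probes), 7 and 1 in high-dose females (4.23% and 3.65%), and 8 and 1 in high-dose males (5.2% and 5.38%). In RAR females 6 genes were higher and 1 lower (9.64% and 10.8% of all probes), and in RAR males 8 were higher and 1 lower (11.2% and 13.4%). The shares were larger among the 9950 genes that, like these 10, were well above background on every array. There 6.33% to 9.89% were higher and 6.07% to 9.42% lower after the single doses. Under RAR 16.7% were higher and 20.3% lower in females, and 19.6% and 24.1% in males. The median difference over the 10 genes was 0.93 in low-dose females, 1.13 in low-dose males, 0.88 in high-dose females, 1.29 in high-dose males, 0.99 in RAR females and 1.38 in RAR males, while the median over all probes lay between -0.05 and 0.00 in these comparisons. The irradiated samples did not overlap with the controls for 9 of the 10 genes in 5 of these 6 comparisons and for 8 in RAR females. The share of all probes without overlap was not computed, so these counts do not show how unusual such a separation was. Between 23.3% and 39.3% of all probes had an unadjusted limma p under 0.05 in these comparisons. The 6 genes that rose in all 6 comparisons were Bbc3, Pmaip1, Bax, Aen, Tnfrsf10b and Ei24, and the gene that fell in all 6 was Bid.

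**Figure D1:**
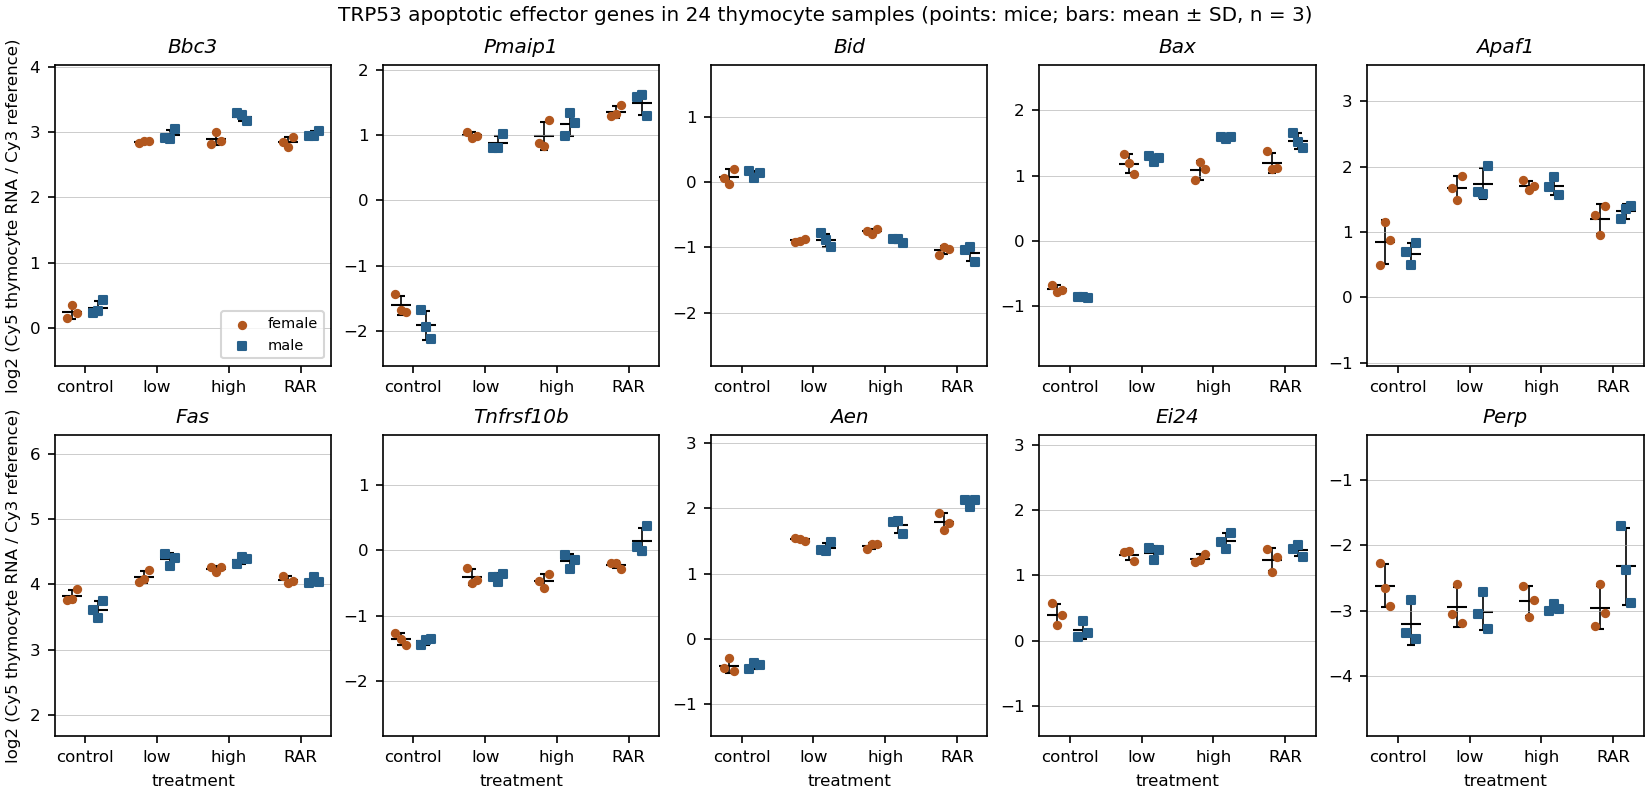
Log2 ratio of Cy5 thymocyte RNA over Cy3 reference RNA (vertical axes, all spanning the same number of units) of the 10 genes by treatment (horizontal axes), for females (circles) and males (squares); each point is 1 mouse, and bars are mean ± SD, n = 3. Bbc3, Pmaip1, Bax, Aen, Tnfrsf10b and Ei24 sit higher in all irradiated groups than in control, Bid sits lower, and Perp groups overlap.

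The BH3-only genes Bbc3 and Pmaip1 had the largest rises of the 10 genes. The Bbc3 log2 ratio was 0.15, 0.35 and 0.23 in the 3 female controls, 2.84, 2.86 and 2.87 after the low dose, 2.82, 3.01 and 2.86 after the high dose and 2.85, 2.77 and 2.93 under RAR. In males it was 0.24, 0.26 and 0.43 in controls, 2.91, 2.89 and 3.04 after the low dose, 3.29, 3.25 and 3.17 after the high dose and 2.94, 2.93 and 3.02 under RAR. All 18 irradiated samples thus lay far above all 6 controls, and the 3 high-dose males were the highest of all. The rise over control was 6.10-fold in low-dose females (log2 difference 2.61 ± 0.09, SE; limma adjusted p = 3.0e-12) and 7.63-fold in high-dose males (2.93 ± 0.09; adjusted p = 2.6e-13), and the other 4 comparisons lay between 6.08- and 6.32-fold.

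Pmaip1 was at -1.43, -1.67 and -1.70 in female controls, at 1.05, 0.96 and 0.98 after the low dose, at 0.88, 0.84 and 1.23 after the high dose and at 1.29, 1.32 and 1.46 under RAR. In males the values were -1.68, -1.94 and -2.12 in controls, 0.80, 0.81 and 1.01 after the low dose, 0.98, 1.33 and 1.19 after the high dose and 1.58, 1.61 and 1.29 under RAR. In both sexes the RAR mean was the highest of the 4 groups. The rise over control was 6.07-fold in low-dose females and 6.91-fold in low-dose males, and it reached 10.6-fold in RAR males (log2 difference 3.41 ± 0.14, SE; limma adjusted p = 1.4e-11).

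The third BH3-only gene, Bid, moved the other way. Its log2 ratio was 0.06, -0.03 and 0.21 in female controls, -0.91, -0.90 and -0.87 after the low dose, -0.74, -0.80 and -0.73 after the high dose and -1.12, -1.0 and -1.02 under RAR. In males it was 0.16, 0.06 and 0.14 in controls, -0.79, -0.89 and -0.99 after the low dose, -0.88, -0.87 and -0.94 after the high dose and -1.04, -0.99 and -1.23 under RAR. Every irradiated sample was below every control. Bid fell by 0.97 ± 0.09 (log2, SE) in low-dose females, by 0.84 ± 0.09 in high-dose females and by 1.21 ± 0.09 in RAR males, with limma adjusted p-values of 9.3e-07, 4.3e-06 and 1.1e-08. Across the 24 arrays its ratio ran opposite to that of Aen (Pearson r = -0.99) and of Bbc3 (r = -0.96), a description over arrays that share the groups and the treatments.

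Bax, whose product forms the mitochondrial pore, was at -0.67, -0.78 and -0.75 in female controls, at 1.33, 1.19 and 1.03 after the low dose, at 0.93, 1.21 and 1.09 after the high dose and at 1.37, 1.1 and 1.12 under RAR. In males it was at -0.87, -0.85 and -0.88 in controls, at 1.30, 1.20 and 1.27 after the low dose, at 1.59, 1.55 and 1.59 after the high dose and at 1.66, 1.52 and 1.41 under RAR. No irradiated sample overlapped with a control, and the high-dose males lay above all high-dose females. The rise ranged from 3.51-fold in high-dose females to 5.44-fold in high-dose males, with a limma adjusted p of 2.6e-09 in the former and 3.5e-11 in the latter.

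Apaf1, the core of the apoptosome, rose after both single doses and stood nearer to control under RAR. Its values were 0.49, 1.16 and 0.88 in female controls, 1.67, 1.49 and 1.85 after the low dose, 1.79, 1.64 and 1.70 after the high dose and 1.26, 0.96 and 1.4 under RAR. In males they were 0.69, 0.50 and 0.83 in controls, 1.62, 1.59 and 2.02 after the low dose, 1.69, 1.85 and 1.57 after the high dose and 1.19, 1.35 and 1.41 under RAR. In both sexes all 3 RAR samples lay below all 6 samples that had received a single dose, and in females they overlapped with the controls. Apaf1 was 1.77-fold higher than control in low-dose females (limma adjusted p = 0.0022) and 1.83-fold in high-dose females (adjusted p = 0.0016), whereas in RAR females the difference was 0.36 with a 95% interval from 0.01 to 0.71 and did not pass (adjusted p = 0.13). In RAR males it was 1.56-fold higher (0.64 ± 0.17, SE; adjusted p = 0.0055), a call that was lost under quantile normalization (0.53; adjusted p = 0.088) and, by the fold only, without control replicate 2 (0.56; adjusted p = 0.032).

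The death receptor genes Fas and Tnfrsf10b differed in how far they moved. The Fas ratio was high in controls already, at 3.77, 3.77 and 3.93 in female controls, 4.04, 4.08 and 4.23 after the low dose, 4.27, 4.20 and 4.26 after the high dose and 4.13, 4.02 and 4.06 under RAR. In males it was at 3.61, 3.49 and 3.75 in controls, 4.47, 4.29 and 4.41 after the low dose, 4.31, 4.41 and 4.39 after the high dose and 4.02, 4.11 and 4.04 under RAR. Control and irradiated samples did not overlap in either sex, but the steps were small. The rise passed in low-dose males (1.71-fold; limma adjusted p = 1.4e-05) and in high-dose males (1.69-fold; adjusted p = 1.1e-05), the latter at 0.57 and so below 1.5-fold in the Cy5 channel alone. In females (log2 differences 0.29, 0.42 and 0.24 after the low dose, the high dose and RAR) and in RAR males (0.44) the adjusted p was under 0.05 but the change stayed below 1.5-fold. These smaller steps depended on the processing. Over the alternatives the lowest differences were 0.24, 0.20 and 0.00 in females and 0.05 in RAR males. The highest limma adjusted p-values were 0.13, 0.23 and 0.99 in females and 0.84 in RAR males.

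Tnfrsf10b was at -1.27, -1.36 and -1.45 in female controls, at -0.28, -0.50 and -0.46 after the low dose, at -0.47, -0.58 and -0.36 after the high dose and at -0.20, -0.19 and -0.29 under RAR. In males it was at -1.46, -1.37 and -1.37 in controls, at -0.41, -0.48 and -0.36 after the low dose, at -0.08, -0.29 and -0.14 after the high dose and at 0.05, -0.02 and 0.37 under RAR. All irradiated samples lay above all controls, and the 3 RAR males were the highest of the 24. The rise was 1.93-fold in low-dose females and 1.85-fold in high-dose females, and it was 2.89-fold in RAR males (log2 difference 1.53 ± 0.11, SE; limma adjusted p = 6.6e-09).

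Aen was measured by 2 probes whose ratios had a Pearson r of 0.998 over the 24 arrays, and whose differences between groups were within 0.15 of each other. With the brighter probe it was at -0.44, -0.29 and -0.49 in female controls, at 1.55, 1.54 and 1.5 after the low dose, at 1.38, 1.46 and 1.46 after the high dose and at 1.94, 1.67 and 1.78 under RAR. In males it was at -0.46, -0.37 and -0.40 in controls, at 1.37, 1.35 and 1.48 after the low dose, at 1.80, 1.81 and 1.61 after the high dose and at 2.13, 2.02 and 2.12 under RAR. In each sex the RAR samples lay above all samples of the other 3 groups. The rise was 3.83-fold in low-dose females and 5.66-fold in RAR males (log2 difference 2.50 ± 0.09, SE; limma adjusted p = 2.6e-12). Ei24 rose in all 6 comparisons too, from 0.24 to 0.57 in female controls and 0.05 to 0.30 in male controls to between 1.04 and 1.65 in the 18 irradiated samples, by 1.79-fold in RAR females at the least and 2.57-fold in high-dose males at the most.

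Perp was the exception among the 10 genes. Its values were -2.27, -2.66 and -2.92 in female controls, -3.04, -2.59 and -3.18 after the low dose, -2.62, -3.09 and -2.84 after the high dose and -3.23, -2.59 and -3.04 under RAR. In males they were -3.34, -2.83 and -3.43 in controls, -3.05, -2.72 and -3.27 after the low dose, -3.01, -2.89 and -2.97 after the high dose and -1.70, -2.37 and -2.89 under RAR. Control and irradiated samples overlapped in every comparison. Only RAR males passed (1.84-fold; limma adjusted p = 0.016), and this rested on few arrays: without RAR replicate 1 the log2 difference was 0.57 (adjusted p = 0.12), without control replicate 1 it was 0.81 (adjusted p = 0.059), without control replicate 3 it was 0.77 (adjusted p = 0.069), and with the slide as a block it was 0.94 (adjusted p = 0.061). Within the 1 slide that held a RAR male and a control male the difference was 1.64.

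**Figure D2:**
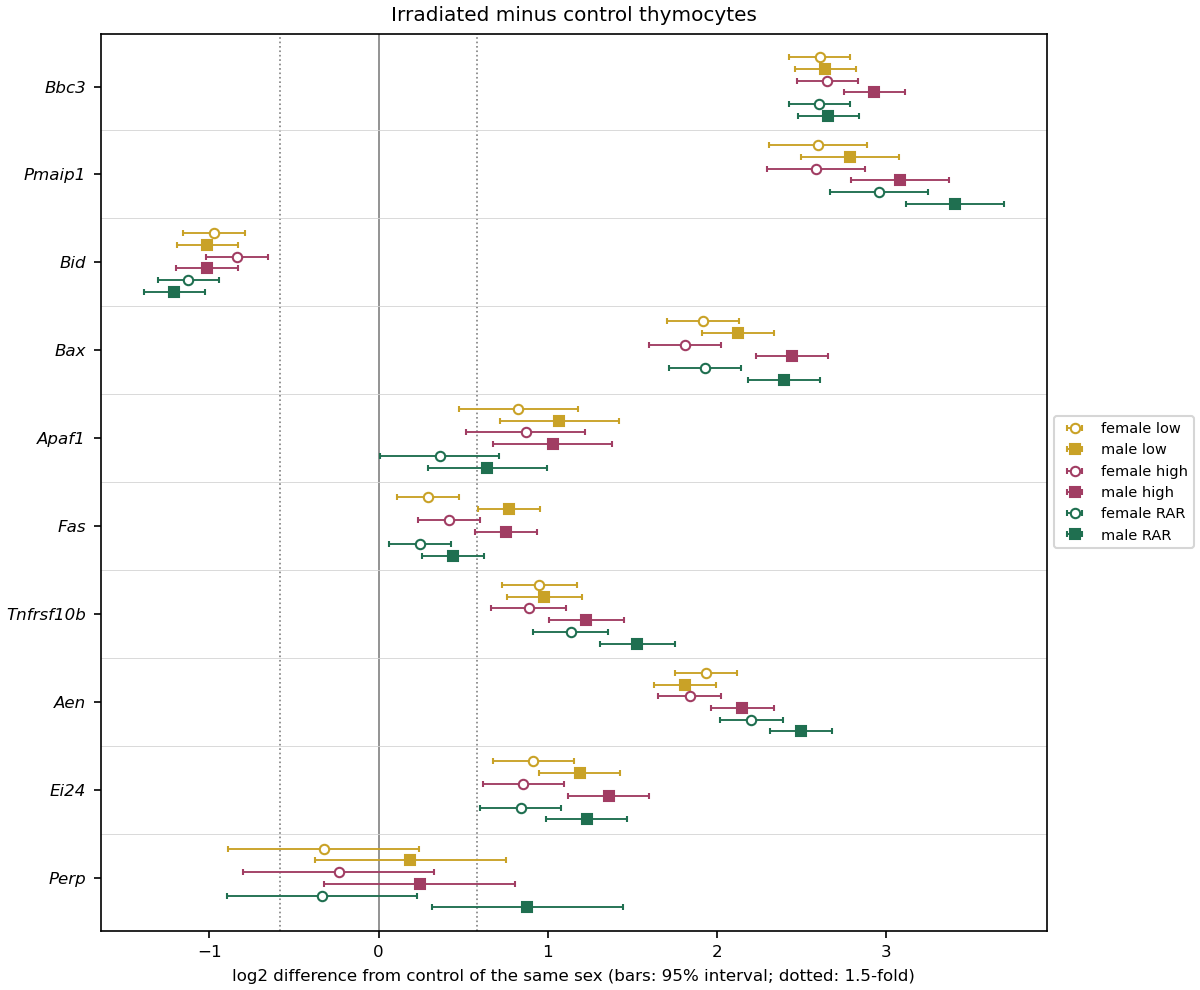
Log2 difference from control of the same sex (horizontal axis) for the 10 genes (vertical axis) in females (open circles) and males (filled squares) after the low dose, the high dose and RAR; bars are 95% intervals and dotted lines mark 1.5-fold. Bbc3 and Pmaip1 lie farthest to the right, between 2.59 and 3.41, Bid lies to the left in all 6 comparisons, and 5 of 6 Perp intervals include 0.

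The design also sets the single high dose beside the much smaller single low dose. For none of the 10 genes did the high dose differ from the low dose past the threshold, in females (0% of all probes called in either direction), in males (0.0018%) or averaged over the sexes (0.00359%). At an unadjusted limma p under 0.05 there were 0 genes in females (4.74% of all probes) and 5 in males (7.35%), namely Bbc3 (log2 difference 0.29, 95% interval 0.11 to 0.47), Pmaip1 (0.29, 0.00 to 0.58), Bax (0.32, 0.11 to 0.53), Tnfrsf10b (0.25, 0.02 to 0.47) and Aen (0.34, 0.16 to 0.53). All 5 were higher after the high dose, and their adjusted p-values lay between 0.41 and 0.68. Leaving out Perp, whose interval reached 0.65, the 95% intervals of the high minus low difference stayed between -0.39 and 0.58 in both sexes. In this fit, and gene by gene, these intervals bound the difference at just under 1.5-fold for 9 genes. Over the alternatives in processing the estimate in males reached 0.45 for Pmaip1 and 0.44 for Aen, so the bound is given for this fit only. The intervals do not show that the doses act alike. Because the low dose was given as X-rays and the high dose as γ-rays, dose and kind of radiation cannot be told apart.

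The adaptive regimen was then set against each single dose. Against the high dose, 0 of the 10 genes passed in females (7.3% of all probes called in either direction) and 0 in males (5.89%), with 5 and 8 genes at an unadjusted limma p under 0.05 (25.5% and 23.6% of all probes). At an adjusted p under 0.05, whatever the fold, there were 2 genes in either sex (11.8% and 10.2% of all probes). The Bbc3 mean was 2.97 under RAR and 3.24 after the high dose in males, and 2.85 and 2.90 in females. Against the low dose, 0 passed in females (4.14% of all probes) and 2 in males (9.78%). The 2 genes were Pmaip1, 0.62 higher under RAR (1.5-fold or more; SE 0.14, limma adjusted p = 0.0041), and Aen, 0.69 higher (SE 0.09, adjusted p = 3.5e-05). Tnfrsf10b was 0.55 higher with an adjusted p of 0.0013 and fell short of 1.5-fold, but passed without RAR replicate 1 (0.59) or RAR replicate 2 (0.63). Fas was lower under RAR, by a log2 difference of -0.33 with an adjusted p of 0.013, and did not reach 1.5-fold either. Both calls were lost in the Cy5 channel alone (Pmaip1 0.55, Aen 0.42) and under quantile normalization (0.44 for either gene), and the Pmaip1 call fell below 1.5-fold without low-dose replicate 1 (0.58), RAR replicate 1 (0.58) or RAR replicate 2 (0.56). Within the 1 slide that held a RAR male and a low-dose male the differences were 0.77 for both genes. For Perp in males the RAR minus high and RAR minus low differences were 0.64 and 0.69 and did not pass, but without RAR replicate 3 they were 0.92 (adjusted p = 0.048) and 0.98 (adjusted p = 0.022).

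The differences between RAR and the single doses were small and ran both ways. Averaged over the sexes, a comparison added after the values were seen, 0 genes passed against the high dose (9.52% of all probes called) and 0 against the low dose (9.07%), although 6 and 5 genes had an adjusted p under 0.05, as did 21.8% and 21.3% of all probes. Against the high dose these were Aen (0.36), Pmaip1 (0.35) and Tnfrsf10b (0.28), higher under RAR, and Apaf1 (-0.45), Fas (-0.24) and Bid (-0.24), lower under RAR. Against the low dose they were Pmaip1 (0.49), Aen (0.48) and Tnfrsf10b (0.37), higher, and Apaf1 (-0.45) and Fas (-0.19), lower. For Bax and Ei24 the averaged 95% intervals against the high dose ran from -0.12 to 0.18 and from -0.24 to 0.10. Because the RAR samples are the same in both comparisons, these values stand side by side and are not independent of each other.

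**Figure D3:**
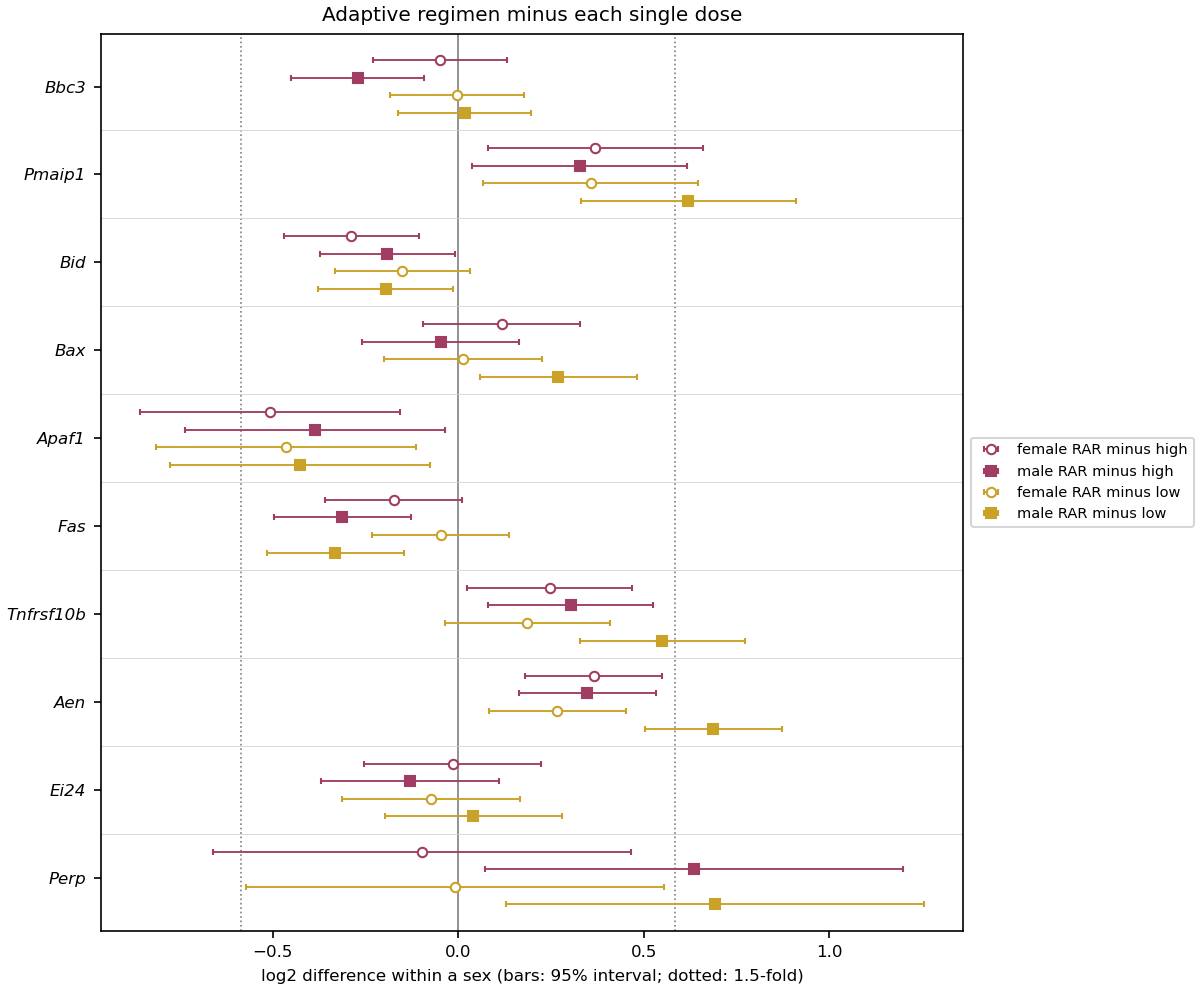
Log2 difference of RAR minus the high dose and RAR minus the low dose (horizontal axis) within females (open circles) and males (filled squares) for the 10 genes (vertical axis); bars are 95% intervals and dotted lines mark 1.5-fold. Pmaip1, Tnfrsf10b and Aen lie to the right of 0 and Apaf1 and Bid to the left in all 4 comparisons, mostly inside 1.5-fold.

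The sexes were compared by the contrasts of the study's methods, here over all probes and with all 3 arrays of each group. No gene of the 10 differed between RAR males and RAR females past the threshold (0.438% of all probes called in either direction); at an unadjusted limma p under 0.05 (11.8% of all probes) there were 4, all higher in males, namely Tnfrsf10b (log2 difference 0.36), Bax (0.34), Aen (0.29) and Perp (0.63), with adjusted p-values from 0.19 to 0.36. The sex difference under RAR minus that in controls passed for 0 genes (0% of all probes), minus that after the high dose for 0 (0.00359%) and minus that after the low dose for 0 (0%), with 6, 0 and 3 genes at an unadjusted p under 0.05 (7.64%, 4.76% and 7.09% of all probes). The F-test of the sex by treatment interaction called 0 of the 10 genes (0.00359% of all probes), with 6 at an unadjusted p under 0.05 (6.49% of all probes) and a limma adjusted p of 0.62 for Bax, the lowest of the 10. The 6 genes of the first contrast were Perp (1.21, 95% interval 0.42 to 2.01), Bax (0.47, 0.17 to 0.77), Pmaip1 (0.45, 0.04 to 0.86), Tnfrsf10b (0.39, 0.08 to 0.71), Ei24 (0.39, 0.05 to 0.73) and Aen (0.30, 0.03 to 0.56). In all 6 the estimated difference from control to RAR was higher in males than in females, for Perp with opposite signs (0.88 in males and -0.33 in females), and none passed the adjustment. The controls enter this contrast too. Male and female control means were -3.20 and -2.62 for Perp, -1.91 and -1.60 for Pmaip1, 0.16 and 0.40 for Ei24, and -0.87 and -0.74 for Bax. They were -1.40 and -1.36 for Tnfrsf10b and -0.41 in either sex for Aen. With the value of each group farthest from its mean left out, 9 of the 10 genes passed the interaction test, as did 60.3% of all probes.

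Trp53 itself, the gene of the factor, did not rise. Its log2 ratio was -0.64, -0.31 and -0.51 in female controls and -1.30, -1.14 and -1.03 in RAR females, and it was -0.43, -0.28 and -0.49 in male controls and -1.35, -1.09 and -1.19 in RAR males. The groups did not overlap in either sex. Trp53 fell by 0.67 ± 0.14 (log2, SE) in RAR females (limma adjusted p = 0.0014), by 0.81 ± 0.14 in RAR males (adjusted p = 0.00020) and by 0.71 ± 0.14 in low-dose males (adjusted p = 0.0032). The difference was -0.44 in low-dose females, -0.24 in high-dose females and -0.49 in high-dose males, none of which passed.

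Among 26 other TRP53 targets, genes of arrest, repair, feedback and stress, 12 were higher and 0 lower in low-dose females and in low-dose males, 12 and 0 in high-dose females, 14 and 1 in high-dose males, 13 and 1 in RAR females and 13 and 2 in RAR males. Of the 9950 genes well above background on every array, 6.33% to 9.89% were higher after the single doses, 16.7% in RAR females and 19.6% in RAR males. The shares that were lower were 6.07% to 9.42%, 20.3% and 24.1%. The median difference of the list lay between 0.61 and 0.80 in these 6 comparisons, beside a median over all probes of at most 0.00. Plk2, a polo-like kinase, and Gdf15, a stress cytokine, had the largest rises, with log2 differences under RAR of 4.41 and 3.28 in females and 4.93 and 4.10 in males, all past the threshold. The largest falls under RAR were those of Rrm2b, a ribonucleotide reductase subunit (-1.76 in males; limma adjusted p = 0.0021), and Xpc, a DNA damage sensor (-0.63 in females and -0.82 in males). Of the 26 genes, 23 were well above background in Cy5 on every array, and Plk2 and Rrm2b were not (18 and 13 of 24).

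The partners of the 10 genes in the same pathways are given as 3 lists. Of 12 measured BCL2 family partners, at most 2 were higher and at most 1 lower in any comparison with control, and the list median lay between 0.00 and 0.10. In RAR females, where 2 were higher and 1 lower, 16.7% of the 9950 genes were higher and 20.3% lower, so these counts do not stand out. Only 8 of the 12 partners were themselves well above background on every array, so the 2 sets are not fully alike. Bcl2a1d, a survival member, was 1.07 higher in RAR females and 1.51 higher in RAR males, and Mcl1, another, rose by 0.74 in RAR females, while Bmf, a BH3-only gene, fell by 1.19 in RAR females and 1.21 in RAR males (all log2; limma adjusted p at most 0.0013). Of 10 death receptor partners, 0 passed after either single dose, 2 were higher in RAR females, and 3 were higher and 1 lower in RAR males, beside 16.7% of the 9950 genes well above background on every array that were higher in RAR females, and 19.6% higher and 24.1% lower in RAR males. The list median was -0.11 in RAR females and 0.21 in RAR males. Cflar, the inhibitor of caspase 8 at the receptor, rose by 0.64 in RAR females and 0.98 in RAR males, Tnfsf10, which encodes TRAIL, the ligand of the receptor from Tnfrsf10b, rose by 0.83 in RAR males, and Fadd, the adaptor, fell by 1.36 in RAR males (adjusted p = 0.0081).

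Of 15 apoptosome and executioner partners, 0 were higher in any of the 6 comparisons with control, and 3 were lower in low-dose females, 4 in low-dose males, 3 in high-dose females, 4 in high-dose males, 6 in RAR females and 8 in RAR males. Of those 9950 genes, between 6.07% and 9.42% were lower after the single doses, 20.3% in RAR females and 24.1% in RAR males. The list median was -0.23, -0.11, -0.25, -0.27, -0.50 and -0.59 in that order. Dffa, the chaperone and inhibitor of the apoptotic nuclease, fell by 0.84 in RAR females (limma adjusted p = 0.0062) and by 1.31 in RAR males (adjusted p = 0.00010).

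Marker genes of cell types shifted with treatment in the same samples. The 11 markers of double-positive thymocytes were all well above background in every group, with a mean log2 ratio between 5.31 and 5.98 on the 24 arrays. Single markers were called both ways under this mean: against control, 2 were higher and 3 lower in RAR females, and 4 were higher and 1 lower in RAR males. Among the 9950 genes well above background on every array, 16.7% were higher and 20.3% lower in RAR females. In RAR males the shares were 19.6% and 24.1%, and all marker counts under RAR given here stand beside these shares. The mean of 12 measured myeloid markers was 0.86 to 1.11 in female controls, 1.4 to 1.66 after the low dose, 1.42 to 1.65 after the high dose and 2.19 to 2.76 under RAR, and in males 0.64 to 0.77, 1.39 to 1.5, 1.61 to 1.92 and 2.39 to 2.77. The mean of 8 markers of mature T cells was 3.40 to 3.54 in female controls and 4.10 to 4.30 in RAR females, and 3.20 to 3.50 and 4.29 to 4.45 in males. That of 12 proliferation genes was -0.17 to 0.04 and -0.93 to -0.53 in females, and -0.29 to 0.07 and -1.19 to -1.03 in males. That of 11 markers of thymic epithelium was 0.75 to 0.83 in female controls, -0.11 to 0.55 after the low dose, -0.01 to 0.36 after the high dose and -0.18 to 0.16 under RAR, and in males 0.72 to 0.97, -0.06 to 0.21, -0.29 to 0.32 and 0.25 to 0.50. Only 4 of these 11 genes were well above background on all 24 arrays, and they did not move as 1: against control, 1 was higher and 3 lower in RAR females, and 2 were higher and 2 lower in RAR males. The mean of 8 B cell markers was 0.47 to 0.94 in female controls and 0.21 to 0.35 in RAR females, and 0.60 to 0.89 and 0.14 to 0.38 in males, with 4 of the 8 lower and 1 higher in RAR of either sex. On the 24 arrays the means of erythroid markers lay between 1.17 and 2.22 and those of stroma between -3.10 and -2.37. These shifts accompany the changes of the 10 genes, largest under RAR for the myeloid, mature T cell and proliferation lists, and their part in those changes was not tested.

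**Figure D4:**
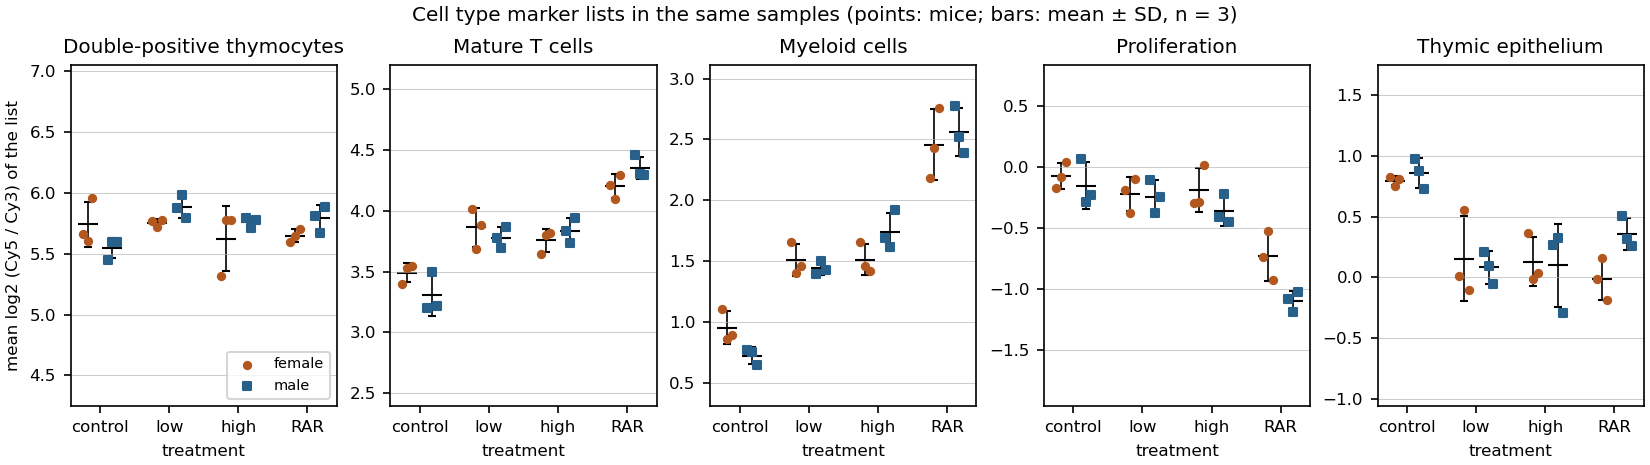
Mean log2 ratio (Cy5 over Cy3; vertical axes, all spanning the same number of units) of 5 marker lists by treatment (horizontal axes) in females (circles) and males (squares); each point is 1 mouse, bars are mean ± SD, n = 3. The mean of the double-positive markers stays between 5.31 and 5.98, while the mean of the myeloid markers lies highest and that of the proliferation genes lowest under RAR.

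Arrays lay on 3 slides of 8, which the groups crossed only in part. Within slides that held both a control and an irradiated sample of 1 sex, every called difference kept its direction: 8 of 8 in low-dose females (1 slide), 18 of 18 values in low-dose males (2 slides), 9 of 9 in high-dose males and 9 of 9 in RAR males (1 slide each). High-dose and RAR females shared no slide with female controls, so no within-slide value exists for them, and the fit with the slide as a block kept all 8 and 7 of their calls.

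As a description over the 24 arrays, which share the groups, the named gene outside the 10 whose ratio ran most closely with each member was sought among 9940 genes that were well above background on every array. For Bbc3 it was Ccng1 (Pearson r = 0.995), for Bax and for Aen it was Phlda3 (r = 0.992 and 0.991), for Pmaip1 it was Dglucy (0.986), for Bid it was Prpf19 (0.984), for Tnfrsf10b it was Pvt1 (0.979) and for Ei24 it was Olfr1229 (0.971). For Fas it was Dhx40 (0.927) and for Apaf1 it was Wdr78 (0.923), and for Perp no gene went above Cxcl12 (0.797). Among the members themselves, Bbc3, Pmaip1, Bax, Aen, Tnfrsf10b and Ei24 had pairwise correlations between 0.91 and 0.99, and those of Perp with the other members lay between -0.19 and 0.20.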

How the data were processed

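Thymocyte RNA (Cy5) and a common mouse reference RNA (Cy3) were hybridized to 24 Agilent 2-colour arrays without dye swaps. The authors deposited the Feature Extraction output (version 11.5.1.1 per the file headers), whose processed intensity in each channel had been corrected for background and dye trend, and log2 ratios per probe that the authors made from it; 100% of these ratios lay within 0.01 of those computed here. Spots that the software held for outliers (183 to 368 an array) were dropped with the control spots; 0 spots were saturated. Spots of a probe were averaged as log2(Cy5/Cy3), without further scaling between arrays. Every column of values was matched to a sample by its labels.

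All groups were fitted together with limma 3.58.1 in R 4.3.3, without covariates, with 16 residual and 1.63 prior degrees of freedom. Intervals are 95% intervals of that fit. The fit was tested on simulated data with known changes. Python 3.11.15, pandas 2.3.3 and matplotlib 3.10.9 were used. Where a gene had several probes, the probe brightest in Cy5 on average stands for it. Accessions were named through a RefSeq table of GRCm38.p6, used for names only because the array was annotated on an older build. The 10 genes, the partner lists and the marker lists were chosen with earlier results of these data known. From each partner list the text names at most the 2 largest rises and 2 largest falls past the threshold under RAR against control in either sex. Some genes that this rule gives are not reported here. Marker lists of B cells, erythroid cells and stroma were also computed. The alternatives were other background corrections and normalizations, the Cy5 channel alone, the deposited table, a filter on dim probes, slide and replicate blocks, the value of each group farthest from the others left out, a larger fold threshold, and each array left out in turn. The protein blots and RT-PCR of the study were not analysed here.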

Additional observations from a re-analysis of the deposited data

Results flagged for a closer look

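Perp moved in opposite directions in the sexes after the high dose by its means, with a log2 difference from control of -0.2355 in females and 0.2441 in males. This was noted because the 2 sexes pointed opposite ways under the same contrast. Neither difference passed (limma adjusted p = 0.69 and 0.63), and the F-test of the sex by treatment interaction did not call Perp (limma adjusted p = 0.75). The high-dose contrast by itself was not tested for a sex difference.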

How the results depend on the processing

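Under the larger threshold of a log2 change over 1.5, 4 genes remained past it after each single dose in each sex and in RAR females. The number was 5 in RAR males, and 0 in RAR males against low-dose males (1.59% of all probes). At that threshold 1.25% to 2.25% of all probes were called after the single doses, 4.81% in RAR females and 7.15% in RAR males against control. RAR against the low dose in males also gave 0 genes in the Cy5 channel alone (11.3% of all probes) and 0 under quantile normalization (6.47%). With normexp and loess it gave 4 genes (6.25% of all probes), and RAR against the high dose in males gave 1 gene (4.11%). When the value of each group farthest from its mean was dropped, which narrows the spread by construction, 9 genes passed the interaction test (60.3% of all probes), 2 genes the contrast of the sex differences in RAR and in controls (21.3%), and 1 gene that of the sex differences in RAR and after the high dose (18.8%). Leaving out 1 array at a time gave 8 to 9 genes for RAR males against control, 0 to 1 for RAR against the high dose in males and 1 to 3 for RAR against the low dose in males, and moved no other count. With the deposited table, with dim probes left out and with the replicate block, no call of a member changed (the block left 7 genes in RAR females and 9 in RAR males against control); same-numbered samples did not deviate together (median correlation -0.0036, above 0.1 in 4 of 84 pairs), so the numbers do not pair the samples. No called difference changed its sign under any alternative. The Cy5 channel alone moved the median of all probes by 0.68 in RAR females and 0.34 in RAR males against control, with 16647 probes higher and 7394 lower in RAR females in place of 5368 and 6035, and Fas in RAR females then stood at 0.00. Slide as a block gave 720 higher and 918 lower probes in high-dose females in place of 2356 and 2035. The cause of these changes was not tested, and 3 arrays a group limit the precision.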
